A study of Mus musculus with 9 samples.

Results

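Ccl2, Ccl3, Ccl4, Ccl5, Ccl17 and Ccl19 encode CC chemokines, small secreted proteins named for a pair of adjacent cysteines, which steer leukocytes through G protein-coupled receptors. They were taken by gene symbol from the array's annotation, which gave 6 genes with 1 probe each among 8841 named genes and 10012 probes. RNA of whole mouse lung was measured on 9 arrays in 3 groups of 3. The overventilation group received mechanical ventilation for 3 h with 25 cmH2O. The LPS group was injected with 3 mg/kg of E. coli lipopolysaccharide (O127:BO serotype), a bacterial cell wall molecule sensed by Toll-like receptor signalling. The control group is named only as such. The labels give no strain, age or sex, no time after LPS and no handling of the controls. Nor do they say that each sample is its own animal, so the p-values refer to the spread among samples of a group, and that spread may be technical.

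Chemokines of this family are made by resident cells such as epithelium, endothelium and macrophages when Toll-like receptors, cytokines or mechanical stretch act on the lung, and their RNA can accumulate within hours. Ccl2 acts on Ccr2 and draws monocytes from blood. Ccl3 and Ccl4 attract monocytes and macrophages, though activated T cells and NK cells respond to them too, and Ccl3 acts on Ccr1. Ccl5 is made largely by T cells and NK cells and acts on Ccr1 and Ccr3. Ccl17 is a dendritic cell product that attracts Ccr4-bearing T cells, and Ccl19 is made by the stroma of lymphoid tissue and guides Ccr7-bearing T cells and dendritic cells.

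The deposited values are ratios to the mean of the 3 controls, so a level here is a log2 ratio with the control mean at 0, and levels of different genes cannot be compared. Each array also has a floor below which no signal was recorded. That floor was highest on overventilation array 3, a ratio of 2.22, where it held 42.4% of probes, while the other 8 arrays had 27.8% to 39.4% there. Testing was limited to probes above this highest floor on at least 3 arrays and to probes with fewer than 2 arrays at a floor. That left 5710 probes, the 6 chemokine probes among them because none had 2 arrays at a floor. A floor reached on a single array cannot be recognised, so a lone low value of these probes may be a bound. Of 6 lung epithelial marker genes on the array none was at the floor on all 9 arrays, among them the surfactant protein gene Sftpc. Of 12 T cell marker genes on the array 2 were at the floor on all 9, Cd3e and Cd8a. The same held for 1 of 10 monocyte and macrophage genes, Adgre1, and for 1 of 6 dendritic cell genes, the receptor gene Ccr7. Overventilation arrays 1 and 3 stood apart in part of the probes, with 139 probes (2.43% of those tested) more than 1.5 below all 7 other arrays.

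Overventilation against control asks what high-pressure ventilation changes in these transcripts. The monocyte-attracting chemokines Ccl2 and Ccl3 stood about 7-fold above control, Ccl4 stood 1.55-fold above it, and the lymphocyte-attracting Ccl5, Ccl17 and Ccl19 had means below it. No member passed the test over all probes (limma, Benjamini-Hochberg adjusted p between 0.193 and 0.447). The same test called 0 of 5710 probes (0%), with 850 (14.9%) at an unadjusted p under 0.05. In whole tissue, more or fewer cells of a type and more or less RNA per cell cannot be told apart.

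The level of Ccl2 was 3.17, 1.82 and 3.62 on overventilation arrays 1 to 3 and 0.70, -0.71 and 0.00 on control arrays 1 to 3. All 3 ventilated samples lay above all 3 controls, with array 2 the lowest of the ventilated ones. The mean was 2.87 ± 0.94 against 0 ± 0.70 (SD, n = 3 each), a 7.32-fold difference with a 95% interval of 3.17 to 16.9, an unadjusted p of 0.000366 and a limma adjusted p of 0.193. This was the tenth highest change among the 5710 probes.

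Ccl3 lay at 3.25, 1.80 and 3.18 on overventilation arrays 1 to 3 and at 1.09, -0.12 and -0.96 on control arrays 1 to 3. Again the groups did not overlap and ventilated array 2 was the lowest of its group. The difference was 6.70-fold with a 95% interval of 2.72 to 16.5, an unadjusted p of 0.000885 and a limma adjusted p of 0.193. Ccl2 and Ccl3 had similar log2 ratios on each ventilated array, with Ccl3 minus Ccl2 at 0.07, -0.02 and -0.44, and at 0.38, 0.58 and -0.96 on the controls. Without overventilation replicate 2 both passed the limma test, Ccl2 with a log2 change of 3.40 (adjusted p = 0.00577) and Ccl3 with 3.22 (adjusted p = 0.0161). In that setting 290 of 5710 probes passed, 19 of them higher (0.333%) and 271 lower (4.75%). Over the 18 alternative settings the adjusted p ran from 0.00577 to 0.593 for Ccl2 and from 0.0161 to 0.593 for Ccl3.

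Ccl4, whose gene is the next neighbour of Ccl3 on chromosome 11, had a smaller difference. It lay at 0.43, 0.57 and 0.90 on the overventilation arrays and at -0.16, 0.06 and 0.10 on the controls, so these groups did not overlap either. The difference was 1.55-fold (95% interval 0.98 to 2.45, limma adjusted p = 0.357). All 3 monocyte-attracting genes were thus above control without overlap, as were 9.18% of all tested probes. At an unadjusted p under 0.05, Ccl2 and Ccl3 were higher, against 6.2% of tested probes.

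Ccl5 lay at -0.84, -0.70 and -2.42 on overventilation arrays 1 to 3 and at 0.83, -0.51 and -0.33 on control arrays 1 to 3. The ventilated samples were all below the controls, array 2 closest to them, and array 3 was the lowest by far. The difference was 0.40-fold (95% interval 0.18 to 0.90, unadjusted p = 0.0298, limma adjusted p = 0.275). Without overventilation replicate 3 the log2 change of Ccl5 was -0.77, and with quantile normalization -0.81, against -1.32. Ccl5 was the 1 lymphocyte-attracting gene below control without overlap, as were 10.5% of tested probes, and the 1 at an unadjusted p under 0.05, as were 8.69% on the lower side.

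Ccl17 had the widest spread of the 6 genes, at -2.47, 0.54 and -4.00 on overventilation arrays 1 to 3. On control arrays 1 to 3 it lay at -0.61, 0.62 and 0.00. Ventilated arrays 1 and 3 were far below every control, while array 2 lay inside the control range. Ccl17 belongs to the 139 probes that are low on these arrays together, by a gap of 1.85. The mean change was -1.97 with a standard error of 0.93 (limma adjusted p = 0.364). Without overventilation replicate 2 it was -3.23 (adjusted p = 0.011), among the 4.75% of probes called lower in that setting, without replicate 3 it was -0.96, and with quantile normalization -1.20. Over the 18 alternatives its adjusted p ran from 0.011 to 0.877.

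Ccl19 lay at -0.06, -1.58 and -1.97 on the overventilation arrays, against 1.25, -0.87 and -0.38 on the controls. These groups overlapped, with ventilated array 1 above controls 2 and 3. The change was -1.20 with a standard error of 0.68 (limma adjusted p = 0.447), and -0.58 without control replicate 1, the highest value of the gene.

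**Figure D1:**
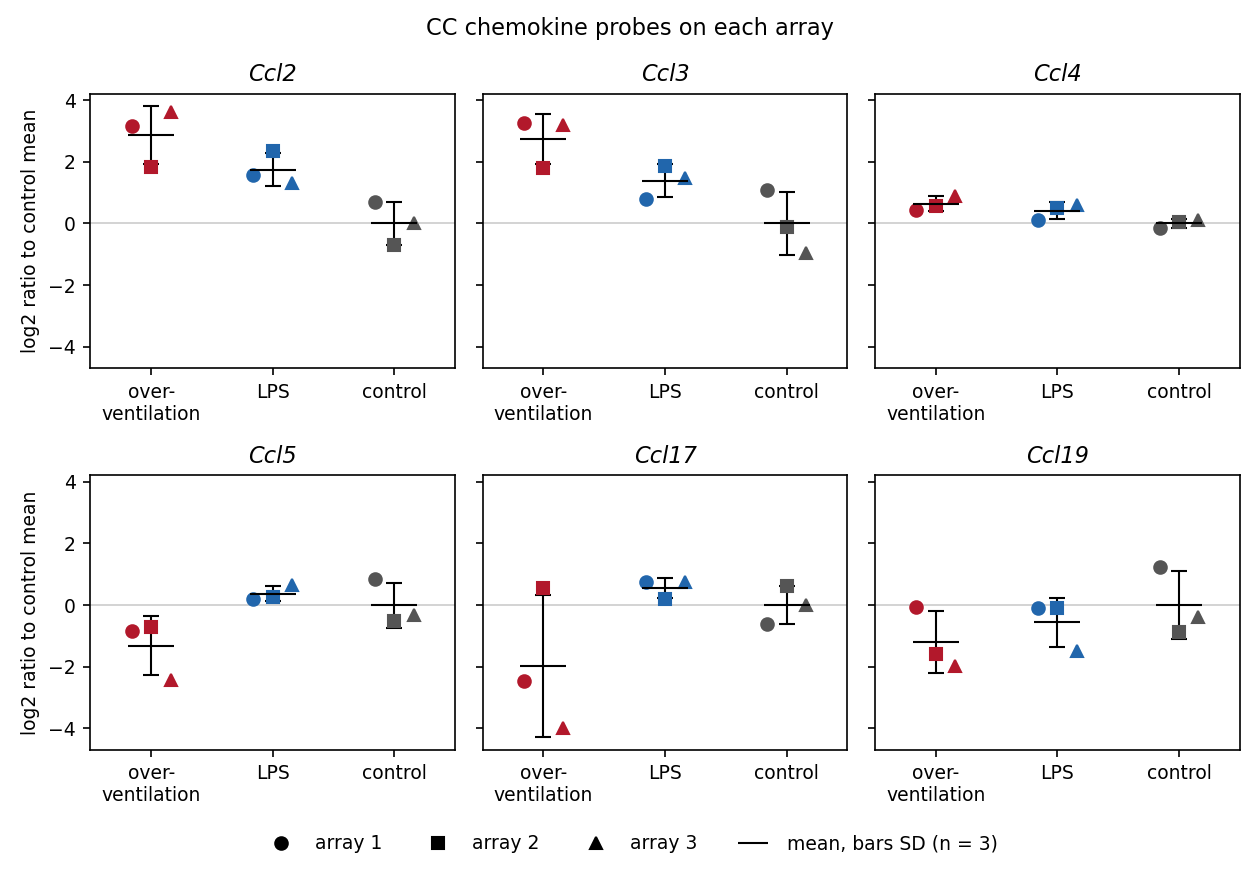
Level of each chemokine probe (log2 ratio to the control mean, vertical axis) on every array of the overventilation, LPS and control groups, with symbols for array numbers, horizontal bars for means and vertical bars for SD (n = 3). Ccl2 and Ccl3 lie at 1.80 or more on all overventilation arrays, while Ccl17 spans -4.00 to 0.54 there.

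To show sequence at both ends of this range, the promoters of Ccl3 and Ccl17 are given from RefSeq (build GRCm38.p6). Entries were found for 3 of the 6 members, Ccl3, Ccl17 and Ccl19. Each window holds 250 bases before the transcription start and 50 after it, read 5' to 3' on the gene's strand, in lower case with the matched motif in capitals. The Ccl3 window is chr11:83649329-83649628 on the minus strand and the Ccl17 window is chr8:94810203-94810502 on the plus strand.
Ccl3: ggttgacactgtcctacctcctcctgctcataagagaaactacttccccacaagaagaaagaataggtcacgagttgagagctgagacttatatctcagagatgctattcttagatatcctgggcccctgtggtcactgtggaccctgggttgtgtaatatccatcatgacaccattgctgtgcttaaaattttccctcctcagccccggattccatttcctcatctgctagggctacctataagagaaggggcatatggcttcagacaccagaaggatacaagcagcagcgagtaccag
Ccl17: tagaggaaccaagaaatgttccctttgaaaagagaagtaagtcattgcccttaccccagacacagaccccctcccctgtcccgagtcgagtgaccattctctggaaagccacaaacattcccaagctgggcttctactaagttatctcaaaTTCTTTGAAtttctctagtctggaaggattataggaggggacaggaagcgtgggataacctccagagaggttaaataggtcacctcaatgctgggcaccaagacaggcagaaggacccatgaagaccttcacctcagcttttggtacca
The 10-base NF-kB consensus, TTCNNNGAA (a STAT-type site), TATAAA and TGACTCA (an AP-1-type site) were searched on both strands. The only match in the 3 windows was TTCTTTGAA in Ccl17, from 99 to 91 bases before the start, a TTCNNNGAA match. It overlaps no other motif searched. Of 32851 promoter windows of the same length 8.30% hold TTCNNNGAA, 8.46% the NF-kB consensus, 13.6% TATAAA and 5.20% TGACTCA. A match is a description of these letters only.

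LPS against control asks what injected endotoxin changes in the same transcripts. Ccl2 and Ccl3 had the highest means of the 6 genes here too, at smaller folds, and the lymphocyte-attracting genes had means inside the control range. No member passed (limma adjusted p = 1 for each), the test called 0 of 5710 probes (0%), and 118 (2.07%) had an unadjusted p under 0.05, or 314 with the replicate number as a block. Over the 18 alternatives no member passed in this comparison.

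Ccl2 lay at 1.58, 2.34 and 1.31 on LPS arrays 1 to 3, all above the controls, whose highest value was 0.70. The difference was 3.35-fold with a 95% interval of 1.45 to 7.74 (unadjusted p = 0.00929, limma adjusted p = 1). Ccl2 was the 1 member above control without overlap, as were 2.24% of tested probes. Its change was the fifteenth highest of 5710.

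Ccl3 lay at 0.80, 1.86 and 1.46 on the LPS arrays, so array 1 was below control array 1 at 1.09. The difference was 2.60-fold (95% interval 1.05 to 6.41, unadjusted p = 0.0404, limma adjusted p = 1), and the log2 change was 0.90 without control replicate 3, against 1.38. Ccl2 and Ccl3 were the 2 members higher at an unadjusted p under 0.05, as were 0.998% of tested probes. LPS array 2 was the highest of its group for both genes. Ccl4 lay at 0.09, 0.51 and 0.61, with array 1 inside the control range, a 1.32-fold difference (95% interval 0.84 to 2.09).

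Ccl5 lay at 0.19, 0.27 and 0.65 on the LPS arrays, all 3 between the lowest and highest control. Its difference was 1.29-fold with a 95% interval of 0.58 to 2.89. Ccl17 was at 0.74, 0.20 and 0.74 (1.47-fold, 95% interval 0.35 to 6.19) and Ccl19 at -0.10, -0.10 and -1.48 (0.68-fold, 95% interval 0.24 to 1.94). These intervals span changes in both directions, so no difference was detectable. No member lay below control without overlap, as did 4.08% of tested probes, or at an unadjusted p under 0.05, as did 1.07% on the lower side. The sign of the Ccl19 change turned, to 0.065, without control replicate 1.

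Overventilation against LPS sets both injuries side by side. The means of Ccl2, Ccl3 and Ccl4 were higher after overventilation and those of Ccl5, Ccl17 and Ccl19 lower, with none past the test (limma adjusted p between 0.494 and 0.816). The test called 0 of 5710 probes (0%), with 543 (9.51%) at an unadjusted p under 0.05.

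The Ccl5 level was below 0 on all 3 overventilation arrays and above 0 on all 3 LPS arrays, a 0.31-fold difference with a 95% interval of 0.14 to 0.69 (unadjusted p = 0.00891, limma adjusted p = 0.494). It was the 1 member lower without overlap, as were 5.46% of tested probes. Ccl17 was 0.17-fold (95% interval 0.041 to 0.73, unadjusted p = 0.0215), with overventilation array 2 between LPS arrays 1 and 2. Without overventilation replicate 2 the Ccl17 change passed, at -3.79 (limma adjusted p = 0.00548), and without replicate 3 it was -1.52, against -2.53. Without replicate 2, 226 of 5710 probes passed, 225 of them lower (3.94%) and 1 higher (0.0175%), which was no member. Ccl5 and Ccl17 were the members lower at an unadjusted p under 0.05, as were 5.94% of tested probes.

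Ccl2 was 2.19-fold higher than after LPS (95% interval 0.95 to 5.05, limma adjusted p = 0.541) and Ccl3 2.58-fold higher (95% interval 1.05 to 6.37, limma adjusted p = 0.511). For both, overventilation array 2 lay below LPS array 2, so the groups overlapped. No member was higher without overlap, as were 5.73% of tested probes. Ccl3 was higher at an unadjusted p under 0.05, as were 3.57% of tested probes. With quantile normalization the log2 change of Ccl2 was 0.50, against 1.13, and that of Ccl3 0.85, against 1.37. Ccl4 differed by 1.17-fold (95% interval 0.74 to 1.85), and its log2 change of 0.23 was 0.075 without LPS replicate 1, 0.097 without overventilation replicate 3, 0.10 with array weights and 0.031 with quantile normalization. Ccl19 differed by 0.64-fold (95% interval 0.22 to 1.83). In the moderated F test over the 3 groups Ccl2 had the seventh smallest p of 5710 probes (limma adjusted p = 0.424), and this test called 0% of probes at an adjusted p under 0.05 and 10.4% at an unadjusted one.

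**Figure D2:**
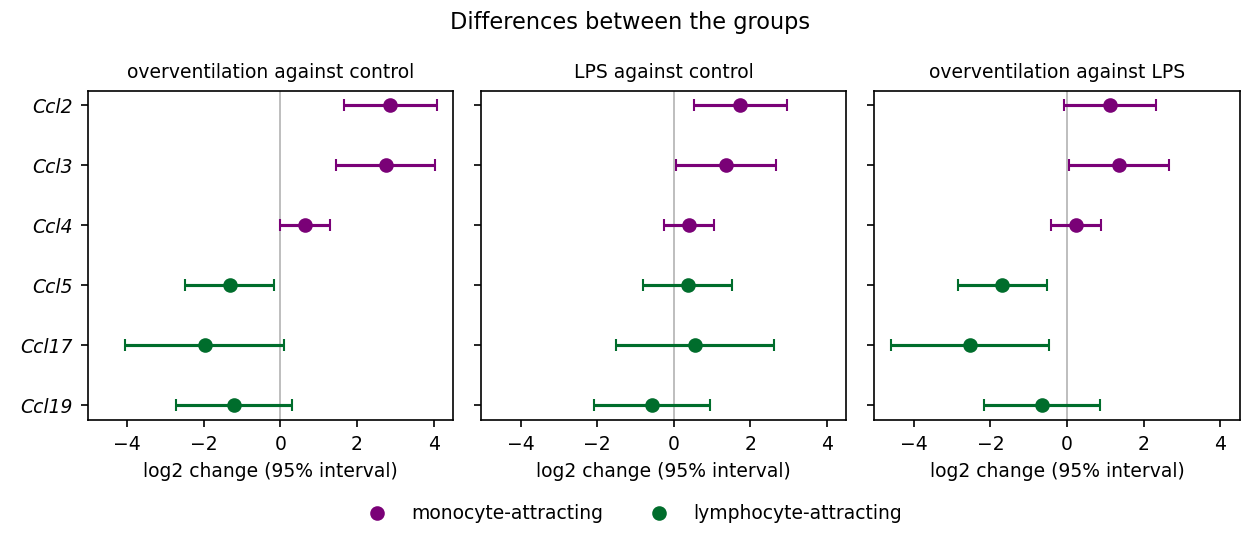
Log2 change (horizontal axis) with its 95% interval from limma for each gene, with a panel for each of the 3 comparisons. The intervals of Ccl2 and Ccl3 lie above 0 in both comparisons with control, and that of Ccl3 also in overventilation against LPS. Those of Ccl5 lie below 0 in overventilation against control and against LPS, and that of Ccl17 in overventilation against LPS. None passed after adjustment.

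Set beside each other, the medians of the monocyte- and of the lymphocyte-attracting genes separated on the overventilation arrays. Single genes came close on overventilation array 2, with Ccl4 at 0.57 and Ccl17 at 0.54. The median of Ccl2, Ccl3 and Ccl4 lay at 3.17, 1.80 and 3.18 on overventilation arrays 1 to 3, while that of Ccl5, Ccl17 and Ccl19 lay at -0.84, -0.70 and -2.42. The distance between both medians was 4.01, 2.51 and 5.60 on these arrays. On LPS arrays 1 to 3 it was 0.61, 1.67 and 0.67, and on control arrays 1 to 3 it was -0.13, 0.38 and 0.33. The 3 groups did not overlap in this distance, which is given without a test because the genes were chosen with earlier results known. The median of all tested probes stayed between -0.12 and 0.09 on the 9 arrays, but their spread differed. Their SD by replicate was 0.95, 0.69 and 1.25 after overventilation, 0.61, 1.19 and 0.63 after LPS, and 0.51, 0.49 and 0.37 for control. Within each injury group the distance was longest where the SD was largest, which did not hold for the controls. LPS replicate 2 had a larger SD than overventilation replicates 1 and 2 but a shorter distance. The part of this spread in the distance was not tested.

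**Figure D3:**
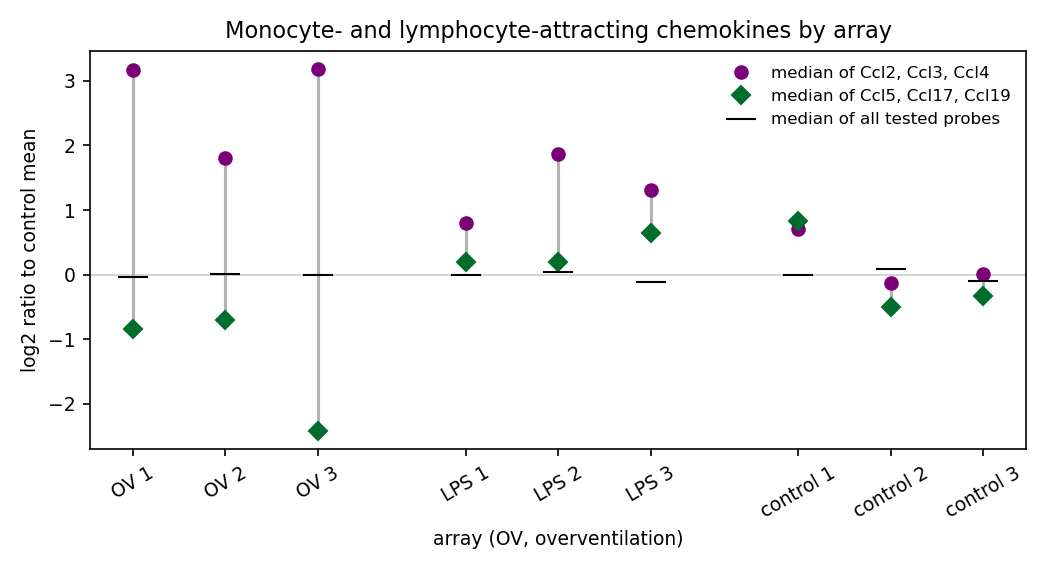
Median log2 ratio to the control mean (vertical axis) of the monocyte-attracting and of the lymphocyte-attracting genes on each array (horizontal axis), with the median of all tested probes as a dash. The grey line between both medians is 2.51 or longer on overventilation arrays, at most 1.67 on LPS arrays and at most 0.38 on control arrays.

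Markers of the cells that make or follow these chemokines were set beside them. For monocytes and macrophages, 6 of 14 listed genes were tested, with a median between -0.46 and 0.21 on overventilation arrays, between -0.39 and 0.51 on LPS arrays and between -0.15 and 0.13 on controls. The members of that list went apart. Lyz2, the lysozyme gene of macrophages and alveolar type II cells, lay at 1.73, 1.19 and 4.77 on overventilation arrays and at 0.83, 0.03 and -0.86 on controls, without overlap (5.91-fold, unadjusted p = 0.0255, limma adjusted p = 0.265). Its change was the eighteenth highest of 5710, while Cd14 was 0.46-fold (limma adjusted p = 0.446). Without overventilation replicate 3 the log2 change of Lyz2 was 1.46, against 2.56. For T cells, 6 of 13 were tested, and their median lay between -0.40 and -0.16 on overventilation arrays, between -0.16 and 0.93 on LPS arrays and between -0.41 and 0.50 on controls. Of those 6, 5 had a mean below control after overventilation and none passed. For neutrophils, which also make Ccl3, 4 of 13 were tested, and their median was between -1.04 and -0.15 on overventilation arrays, between -0.88 and -0.24 on LPS arrays and between -0.61 and 0.51 on controls. For dendritic cells, 4 of 11 were tested, with a median between -0.10 and 0.48 on overventilation arrays, between -0.65 and 0.38 on LPS arrays and between -0.59 and 1.13 on controls. For lymphoid stroma and lymphatic vessels, 6 of 8 were tested, with a median between -0.33 and 0.57 on overventilation arrays, between -0.42 and 0.13 on LPS arrays and between -0.08 and 0.02 on controls. For endothelium, 3 of 6 were tested, with a median between -0.01 and 0.74 on overventilation arrays, between -0.84 and 0.37 on LPS arrays and between -0.42 and 0.51 on controls. For lung epithelium, 6 of 7 genes were tested with 7 probes, and the median lay between -0.12 and 1.46 on overventilation arrays, between 0.05 and 0.36 on LPS arrays and between -0.31 and 0.42 on controls. For platelets, 2 of 4 were tested, with a median between -0.02 and 0.40 on overventilation arrays, between -0.998 and -0.174 on LPS arrays and between -0.52 and 0.47 on controls. For NK cells only Gzma, 1 of 7, was tested, and 2 were at the floor on all 9 arrays. Gzma lay between -0.57 and -0.23 on overventilation arrays, between -0.63 and 0.33 on LPS arrays and between -0.51 and 0.50 on controls. For B cells, 3 of 6 were tested, with a median between -0.13 and 0.41 on overventilation arrays, between -0.40 and 0.62 on LPS arrays and between -0.14 and 0.26 on controls.

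Single markers, named after their values were seen, stood away from control on overventilation arrays, some above it and some below. Ager, a gene of alveolar type I cells, lay at 1.19, 1.14 and 4.48 on overventilation arrays, above controls at 0.06, 0.77 and -0.83 (4.83-fold, unadjusted p = 0.0214, limma adjusted p = 0.246). The surfactant protein gene Sftpd was 3.66-fold (unadjusted p = 0.0427, limma adjusted p = 0.31), with overlap. Of the same epithelial list, Sftpc was 1.67-fold, Scgb1a1 1.05-fold and Sftpa1 0.77-fold, all with overlap. The platelet factor gene Pf4 was 2.65-fold, without overlap (unadjusted p = 0.0151, limma adjusted p = 0.228). Ppbp, the other platelet gene tested, went the opposite way, at 0.46-fold without overlap (unadjusted p = 0.0446, limma adjusted p = 0.318). Csf3r of the neutrophil list was 0.53-fold (unadjusted p = 0.0399, limma adjusted p = 0.301), without overlap. Flt4 of the lymphoid stroma and lymphatic vessel list was 0.59-fold (unadjusted p = 0.036, limma adjusted p = 0.285), also without overlap. Means above control were found for 1 of the 4 tested neutrophil genes and for 5 of the 6 on the list of Flt4. Array 3 was the highest for Lyz2, Ager, Sftpd and Pf4, and without overventilation replicate 3 the log2 changes were 1.17 for Ager, 0.75 for Sftpd and 0.86 for Pf4, against 2.27, 1.87 and 1.41. The 2 probes of Napsa, an aspartic protease gene of type II cells, disagreed, at 0.23-fold without overlap (unadjusted p = 0.000546, limma adjusted p = 0.193) and at 1.39-fold (limma adjusted p = 0.694). The ranges of the list medians overlapped between overventilation and control for every marker list, and the part of cell numbers in the chemokine values was not tested.

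Of 8 receptor genes on the array for these ligands, including the atypical receptors that bind chemokines without classical signalling, 3 could be tested. Ccr1, Ccr2, Ccr3, Ccr7 and the atypical receptor gene Ackr4 did not clear the highest floor on 3 arrays and could not be tested. Ccr4, the receptor of Ccl17, lay at 0.01, -0.20 and -0.52 on overventilation arrays and at 0.43, 0.40 and 0.25 on LPS arrays, without overlap, and at 0.10, 0.12 and -0.23 on controls. Its log2 change was -0.60 for overventilation against LPS (standard error 0.29, limma adjusted p = 0.541). Ackr2, which takes up and degrades inflammatory CC chemokines, lay at 0.69, 0.75 and 1.75 on overventilation arrays, at 0.00, 0.22 and -0.08 on LPS arrays and at -0.42, 0.75 and -0.33 on controls. Its log2 change was 1.06 against control (unadjusted p = 0.0294, limma adjusted p = 0.274) and 1.02 against LPS (limma adjusted p = 0.503). Ackr1, carried by venular endothelium and red cells, had log2 changes of -0.06 after overventilation and -0.43 after LPS against control (limma adjusted p = 0.967 and 1).

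The other CC chemokines and the C chemokine Xcl1 did not share the levels of Ccl2 and Ccl3. Of 18 listed, 14 were on the array and 12 tested. After overventilation 4 had means above control and 8 below, with a median log2 change of -0.24 over the 12, against -0.01 for all tested probes, and none passed. After LPS 7 had means above and 5 below, with a median of 0.19, against -0.05 for all tested probes. Ccl9 and Ccl6, which lie between Ccl5 and Ccl3 on chromosome 11 and attract monocytes and other myeloid cells in the mouse, had log2 changes of -1.11 and -1.10 after overventilation (limma adjusted p = 0.582 and 0.55), and of -0.33 and -0.54 without control replicate 2. Ccl11, or eotaxin, which attracts eosinophils and lies near Ccl2 on chromosome 11, lay at -2.75, 0.77 and -1.59 on overventilation arrays, with arrays 1 and 3 low as for Ccl17, and at -0.43, 0.70 and -0.27 on controls (log2 change -1.19, limma adjusted p = 0.517). In the order of genes on chromosome 8, Ccl22, the other ligand of Ccr4, is separated from Ccl17 by Cx3cl1. Its log2 change was 0.51 after LPS, without overlap (limma adjusted p = 1), and -0.42 for overventilation against LPS, also without overlap (limma adjusted p = 0.654). Ccl12, a Ccr2 ligand of the mouse, and Ccl21b, a Ccr7 ligand, had log2 changes of 0.88 and 0.26 after LPS (limma adjusted p = 1 for each). Leaving out control replicate 1 gave 0.15 for Ccl12, and leaving out control replicate 2 gave 1.56. After overventilation the log2 changes against control were 0.74 for Ccl12, 0.37 for Ccl21b and 0.09 for Ccl22 (limma adjusted p = 0.621, 0.585 and 0.93). Ccl21b was the 1 of the 12 above control without overlap there, as were 9.18% of tested probes.

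**Figure D4:**
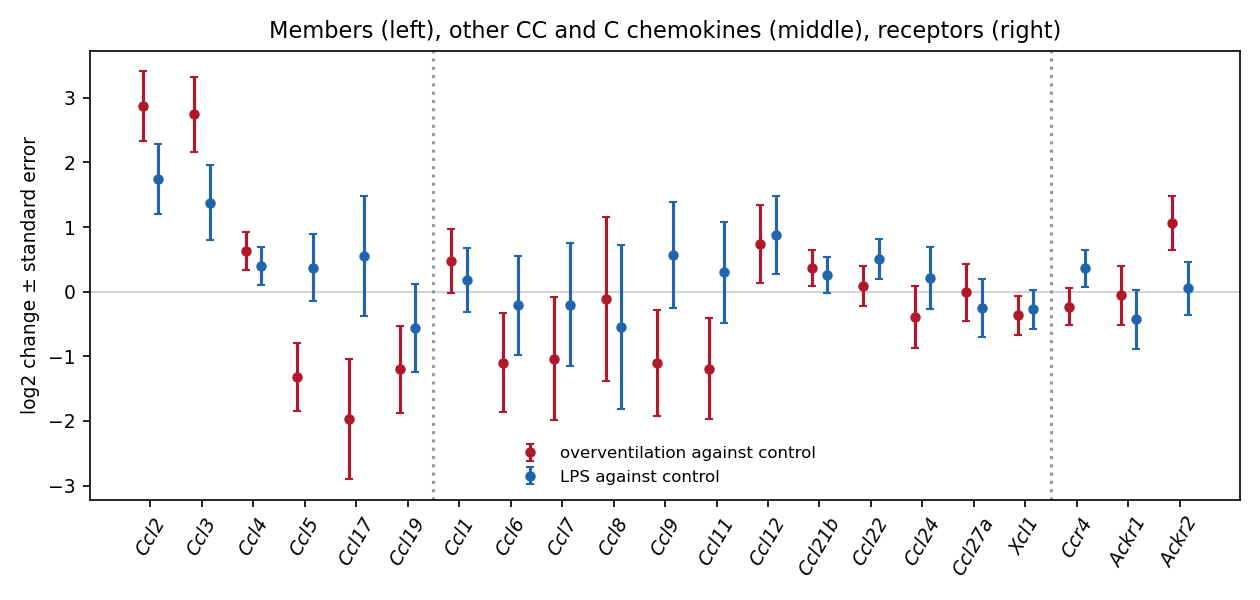
Log2 change against control (vertical axis) with standard errors for the 6 genes, for 12 other chemokines and for 3 receptors (horizontal axis), with overventilation and LPS side by side. Ccl2 and Ccl3 are the highest genes shown in both comparisons, and Ccl17 is the lowest after overventilation.

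Among 33 genes that sense LPS, transmit the signal or induce these chemokines, 14 could be tested. Tnf, Ifng, Lbp, Traf6, Rel and Irf3 were at the floor on all 9 arrays, and Tlr4, the LPS receptor gene, on 8. After overventilation 12 of the 14 had means above control, as did 49.4% of all tested probes, and 5 did so without overlap, as did 9.18% of all tested probes. None passed, and the median log2 change was 0.51, against -0.01 for all tested probes. Nfkb2, a subunit gene of NF-kB, lay at 0.86, 1.33 and 2.58 on overventilation arrays and at 0.20, 0.07 and -0.27 on controls (log2 change 1.59, limma adjusted p = 0.214). Tslp, an epithelial cytokine that makes dendritic cells produce Ccl17, lay at 1.04, 1.32 and 1.83 on overventilation arrays and at -0.03, 0.21 and -0.18 on controls (log2 change 1.39, limma adjusted p = 0.214). Myd88, an adaptor of Toll-like receptors, had a log2 change of 2.56 (limma adjusted p = 0.219), with control array 2 at 1.55 above ventilated array 1 at 1.49.

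After LPS 9 of the 14 had means above control, as did 44.7% of all tested probes, and none passed, with a median of 0.35. The adaptor gene Tirap lay at 1.43, 0.47 and 0.85 on LPS arrays, above controls at -0.16, -0.11 and 0.26 (log2 change 0.92, limma adjusted p = 1). Myd88 and the growth factor gene Csf2 had log2 changes of 1.72 and 1.22, with overlap (limma adjusted p = 1 for each). For Csf2, LPS array 1 at -1.26 lay below every control while arrays 2 and 3 were at 2.64 and 2.30. Between overventilation and LPS, Cd14, a co-receptor of LPS, had a log2 change of -1.80 (limma adjusted p = 0.494), with -1.13, 0.15 and -2.35 on overventilation arrays and -0.29, 1.46 and 0.90 on LPS arrays. Without overventilation replicate 2 this change was -2.43 (limma adjusted p = 0.04997), and that of Ccl11 was -2.47 (limma adjusted p = 0.0389), against -1.49. Both were among the 3.94% of probes called lower in that setting.

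The genes most like each member over the 9 arrays were found by Pearson correlation with 5154 named probes. The points share the 3 groups and the same arrays, so the values are a description. Ccl2 was closest to the interferon-induced GTPase gene Mx2 (r = 0.96), then to Timp3, an inhibitor of metalloproteases (0.95), and to Ccl3 (0.93). Ccl3 was closest to Cflar, a regulator of caspase 8 (0.96), Clec4e, a macrophage lectin receptor (0.95), and Smim3 (0.95), with Ccl2 in seventh place. Ccl4 was closest to Dlx2, Fbxo15 and Sfrp4 (0.97, 0.97 and 0.96), and its correlation with Ccl3 was 0.71. Ccl5 was closest to Dnajb6, Tmod3 and Ghitm (0.94, 0.93 and 0.92), with 0.75 to Ccl17 and 0.62 to Ccl19. Ccl17 was closest to the histone gene H2az1, to Ybx1 and to Aldh1a1 (0.98, 0.97 and 0.97), and H2az1 is also among the 139 probes low on overventilation arrays 1 and 3. Ccl19 was closest to Fto, Llph and Golga3 (0.95, 0.94 and 0.93).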

How the data were processed

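The deposited table holds ratios on a linear scale. Tested on the values, the mean control log2 ratio is 0 for every probe. The labels name no array type, scanner or scaling between arrays. The number of arrays limits the precision. Values were taken as log2. Where 2 or more arrays of a probe were at the floors (tolerance 1e-06), as for 4690 probes, values were raised to the highest floor and centred on the controls again. The 6 members were unaffected. The 3 contrasts came from 1 two-sided limma fit over all 9 arrays (lmFit and eBayes, version 3.58.1, R 4.3.3), with p-values adjusted over 5710 probes at a threshold of 0.05, after a test on simulated data. No symbol needed an update. Members and lists were chosen with earlier results of these data known. Besides the members, receptors were named, and the 3 genes of smallest p among other chemokines and among inducers in each comparison, and the 3 genes of highest correlation with each member.

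After subtracting group means, arrays of the same number correlated at 0.497, 0.247 and 0.199 for LPS and control. The correlations were 0.508, 0.133 and 0.033 for overventilation and control and 0.496, 0.211 and 0.038 for overventilation and LPS. No label states that these arrays are pairs, and the main fit did not treat them as pairs. The replicate block did so as an alternative. Alternatives were the floor, the filter, scaling, weights, the replicate block, the spread and leaving out each array.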

Additional observations from a re-analysis of the deposited data

How the results depend on the processing

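Of 324 member values recomputed under 18 alternatives, 319 kept their direction and their side of the threshold. As no member passed in the main fit, keeping its side means not passing. Some settings leave the log2 changes of the members unchanged by construction, so no direction could turn there. These were the floor, filter, spread and replicate block settings, the fit of the compared arrays only, and leaving out an array of the third group. The scaling and weight settings, which could move the changes, gave no exception. The exceptions came from leaving out 1 array, and their cause was not tested. Leaving out 1 array gave log2 changes between 2.50 and 3.40 for Ccl2, 2.26 and 3.29 for Ccl3 and -3.23 and -0.96 for Ccl17 in overventilation against control, between -3.79 and -1.52 for Ccl17 in overventilation against LPS, and between -0.99 and 0.065 for Ccl19 in LPS against control. Among changes that passed in no setting, leaving out 1 array gave 0.12 to 0.79 for Ccl5 and 0.25 to 0.87 for Ccl17 in LPS against control, and -1.22 to -0.26 for Ccl19 in overventilation against LPS. Of the receptors, Ackr1 ran from -0.33 to 0.26 (overventilation against control) and Ackr2 from -0.16 to 0.42 (LPS against control). The count of probes called ran from 0 to 290 (overventilation against control) and from 0 to 226 (overventilation against LPS), both maxima without overventilation replicate 2, and from 0 to 1 (LPS against control), with the 1 call without control replicate 3. With the replicate block the counts stayed at 0, no member changed its side of the threshold (Ccl2 against control: adjusted p = 0.122 after overventilation and 0.826 after LPS), and the probes at an unadjusted p under 0.05 numbered 1200 for overventilation and 314 for LPS, each against control, and 840 between both injuries, where the fit without the block gave 850, 118 and 543. With 3 arrays a group and no distance from the floor known for the members, small changes such as that of Ccl4 remain beyond what these arrays resolve.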
